A study of Homo sapiens with 10 samples.

Results

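The genes described here are the kinesins, centromere proteins and mitotic regulators of DU145, a human prostate carcinoma line established from a metastasis to the brain. They were chosen by symbol (KIF followed by a digit, CENP followed by a letter, and a fixed set of checkpoint, Aurora, Polo, cyclin, cohesin, condensin and cytokinesis genes) and number 106 of the 13527 features in the deposited RNA-seq table. Transcripts were compared between 3 libraries of cells carrying a short hairpin against SOX4 (shSOX4) and 3 libraries of cells carrying a scramble hairpin (shCon), all untreated and grown in serum. SOX4 binds DNA through an HMG box and controls transcription in development, and the series asks whether lowering it holds back neuroendocrine differentiation of prostate cancer cells. Each arm is a hairpin cell line, and the labels do not say how many clones or separate cultures stand behind its 3 libraries.

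Mitosis separates the copied chromosomes. CDK1 with a B-type cyclin starts it, Aurora and Polo kinases build the spindle, and the kinetochore, assembled on centromeric chromatin marked by CENPA, ties each chromosome to microtubules. Kinesins are motors that move along microtubules or shorten them; some act on the spindle, others carry cargo in cells at any stage. Condensin compacts chromosomes, cohesin holds sister chromatids together, and the checkpoint delays separation until every kinetochore is attached. Many of these genes are transcribed together late in the cell cycle through CHR elements (cell cycle genes homology regions) in their promoters, often with a CCAAT box, which NF-Y binds.

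Promoters are shown first for the 4 subunits of the Ndc80 complex, the microtubule-binding part of the kinetochore, because its transcripts moved in opposite directions, for CENPE and KIF20B, the kinesins with the largest rises, and for PLK1, which did not pass the test. Each is 250 bases before to 50 after the RefSeq start in GRCh38.p14, written along the gene's strand. Capitals mark CHR elements (TTTGAA or TTCGAA) and CCAAT boxes (CCAAT), searched on both strands, so TTCAAA and ATTGG are the same elements read backwards.
NDC80 (chr18:2571307-2571606, plus strand): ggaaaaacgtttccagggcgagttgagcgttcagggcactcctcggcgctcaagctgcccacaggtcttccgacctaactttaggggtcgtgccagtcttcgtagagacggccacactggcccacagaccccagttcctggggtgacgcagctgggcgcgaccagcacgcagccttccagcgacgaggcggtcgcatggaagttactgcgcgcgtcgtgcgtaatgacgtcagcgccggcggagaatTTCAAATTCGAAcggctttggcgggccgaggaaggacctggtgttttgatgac
NUF2 (chr1:163321704-163322003, plus strand): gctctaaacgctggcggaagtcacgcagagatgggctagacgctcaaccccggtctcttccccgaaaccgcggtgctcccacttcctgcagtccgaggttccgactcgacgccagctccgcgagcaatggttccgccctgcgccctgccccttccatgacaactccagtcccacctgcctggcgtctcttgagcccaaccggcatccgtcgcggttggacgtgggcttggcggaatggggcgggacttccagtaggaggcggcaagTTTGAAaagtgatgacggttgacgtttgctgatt
SPC25 (chr2:168890381-168890680, minus strand): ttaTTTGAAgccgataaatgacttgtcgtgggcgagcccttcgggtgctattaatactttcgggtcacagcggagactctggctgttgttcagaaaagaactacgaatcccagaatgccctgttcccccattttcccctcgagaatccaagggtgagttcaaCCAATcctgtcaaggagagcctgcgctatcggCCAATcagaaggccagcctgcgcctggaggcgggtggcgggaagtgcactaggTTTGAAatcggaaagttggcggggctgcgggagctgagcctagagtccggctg
SPC24 (chr19:11155733-11156032, minus strand): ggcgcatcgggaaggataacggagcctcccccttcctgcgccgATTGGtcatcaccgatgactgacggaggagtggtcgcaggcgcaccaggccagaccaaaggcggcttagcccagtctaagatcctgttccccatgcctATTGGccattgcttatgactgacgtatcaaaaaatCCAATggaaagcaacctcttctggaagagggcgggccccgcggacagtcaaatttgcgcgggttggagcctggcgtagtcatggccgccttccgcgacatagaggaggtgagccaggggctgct
KIF20B (chr10:89701340-89701639, plus strand): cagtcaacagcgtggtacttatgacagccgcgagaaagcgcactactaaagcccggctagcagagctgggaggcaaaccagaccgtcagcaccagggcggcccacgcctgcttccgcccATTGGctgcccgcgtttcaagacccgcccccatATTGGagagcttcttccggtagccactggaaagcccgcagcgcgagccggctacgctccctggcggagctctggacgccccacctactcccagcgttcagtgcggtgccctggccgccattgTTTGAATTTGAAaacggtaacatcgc
CENPE (chr4:103198294-103198593, minus strand): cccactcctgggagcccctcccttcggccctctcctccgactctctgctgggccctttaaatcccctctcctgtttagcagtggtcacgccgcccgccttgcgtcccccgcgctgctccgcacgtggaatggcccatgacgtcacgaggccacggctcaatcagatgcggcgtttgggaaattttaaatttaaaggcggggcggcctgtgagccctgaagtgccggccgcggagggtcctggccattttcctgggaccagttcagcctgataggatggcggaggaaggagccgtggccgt
PLK1 (chr16:23678639-23678938, plus strand): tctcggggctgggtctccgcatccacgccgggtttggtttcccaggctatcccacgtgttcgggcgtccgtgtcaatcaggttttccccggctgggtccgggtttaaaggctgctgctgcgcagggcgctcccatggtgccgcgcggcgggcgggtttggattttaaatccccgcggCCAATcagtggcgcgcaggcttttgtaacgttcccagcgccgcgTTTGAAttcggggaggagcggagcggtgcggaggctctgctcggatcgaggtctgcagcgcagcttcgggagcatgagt
NDC80, NUF2 and SPC25 hold CHR elements close to the start, whereas SPC24 holds 3 CCAAT boxes and no CHR element in this window. KIF20B has 2 adjacent CHR elements with CCAAT boxes upstream, PLK1 has a CHR element and a CCAAT box, and the window of CENPE holds neither.

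Among all the members with a promoter in the RefSeq table (90 of 106), 45 held a CHR element (50%), against 10.5% of 9993 promoters of genes in the deposited table and 16.4% of all 35116. A CCAAT box was in 48 of the 90 (53.3%), against 36.1% of the promoters of genes in the deposited table and 34.6% of all. By the expression results below, a CHR element was found in 22 of 30 members that rose (73.3%), 1 of 5 that fell (20%) and 22 of 55 that were not called (40%). For CCAAT the shares were 53.3%, 60% and 52.7% in the same order. Altogether 32 members rose, 7 fell and 67 were not called, so the 16 without a promoter were mostly not called. AURKA, BIRC5 and TPX2 are among these. The make-up of the sets differs too. Kinesins of transport and other roles, together with genes set apart by hand in none of the other role groups, held a CHR element in 2 of 20 cases (10%). Among the other members a CHR element was in 21 of 27 that rose (77.8%) and in 22 of 43 that did not rise (51.2%). A SOX-type motif (AACAAAG or AACAAT, both strands) was in 6 of 90 members (6.67%), against 7.64% of promoters of genes in the deposited table and 14.5% of all. KIF20B carries such a match, overlapping the first of its CHR elements. These are matches of letters, not sites of binding.

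The knockdown was partial. SOX4 (ENSG00000124766) had 4.55, 6.44 and 6.01 CPM in the shSOX4 libraries, against 12.9, 10.1 and 8.48 CPM in the shCon libraries, where CPM is a gene's count scaled to library size, with TMM factors. The groups did not overlap, and 53.9% of the transcript remained (log2 fold change -0.89, SE 0.236, edgeR adjusted p = 0.0111). Without shCon 1, the library highest in SOX4, the value was -0.71 (adjusted p = 0.0598). Libraries held 31189910 to 43361609 counts. On the second principal component of log2 CPM (15.7% of the variance), shSOX4 1 and shCon 3 stood apart from the other 4 libraries. In shSOX4 1 the mitotic genes had a median log2 level 0.17 under the mean of shSOX4 2 and 3 (median difference -0.17, against -0.01 over all features), and in shCon 3 the difference from shCon 1 and 2 was -0.16 (-0.01 over all features). Results are therefore also given without this pair. Of the epithelial markers KRT8 and KRT18 were abundant, with 4603 and 2274 CPM in shSOX4 and 1828 and 1113 CPM in shCon on average; EPCAM averaged 6.28 and 11.2 CPM, CDH1 3.88 and 9.42 CPM, and KRT5 had no row. None of 4 leukocyte markers had a row; the summed level was 5.77 to 11.4 CPM in shSOX4 libraries and 1.27 to 1.87 CPM in shCon libraries over the 2 of 5 fibroblast markers with a row (COL1A1 and LUM). It was 4.70 to 6.62 CPM in shSOX4 and 0.525 to 0.942 CPM in shCon over the 1 of 3 endothelial markers with a row (CDH5). Every feature has at least 1 CPM in 3 or more libraries, and LUM and CDH5 stayed under 1 CPM in every shCon library. Both have a row through the shSOX4 group alone, so the group difference in these sums is partly set by that limit. The part of these markers in the results was not tested.

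Of the 106 genes, 32 rose and 7 fell in shSOX4 cells at an edgeR adjusted p under 0.05, and 67 were not called. Over all features 17.0% rose and 15.8% fell (32.8% either way), and among the members 30.2% rose and 6.60% fell. Their median log2 fold change was 0.27, against -0.01 for all features. Rises lay between 0.55 and 2.13 on the log2 scale and falls between -1.23 and -0.49, and the genes that were not called between -0.62 and 0.78. All 3 shSOX4 values lay above all 3 shCon values for 38 members, where 23.1% of all features did so, and below them for 13 (23.9% of all features). Bulk RNA cannot tell more transcript per cell from more cells in the phase that makes it. Library shSOX4 2 moved the counts most: without it 17 members rose and 4 fell (10.4% and 8.12% of all features). Without shSOX4 1, 38 rose and 6 fell (19.6% and 17.1% of all features). In the other fits that left out 1 library, 25 to 30 rose and 5 or 6 fell; 14.7%, 13.3%, 15.3% and 12.4% of all features rose and 12.4%, 12.2%, 13.6% and 9.53% fell without shCon 1, shCon 2, shCon 3 and shSOX4 3 in that order. Without both libraries that stand apart 41 rose and 8 fell (21.4% and 19.5% of all features). Of the 39 calls, 19 held in each of the 6 fits that left out 1 library, and KIF4A, KIF7, CENPW, CENPA and PLK4 missed the threshold when libraries were scaled by total count alone. At an unadjusted p under 0.05, 45 members were higher and 9 lower (22.1% and 21.9% of all features). With DESeq2 38 rose and 8 fell (19.2% and 17.8% of all features). The authors' deposited table lists 38 members as higher and 8 lower at an adjusted p under 0.05 (19.2% and 17.8% of all features), among them all 39 called here, in the same direction.

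**Figure D1:**
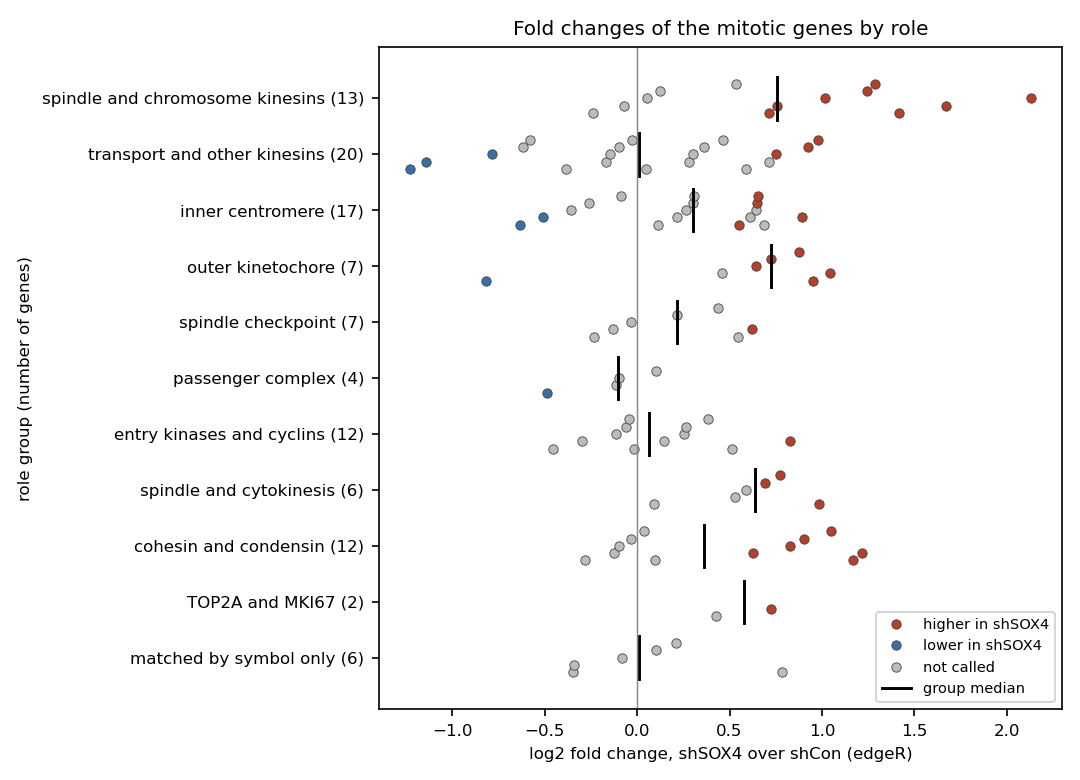
Log2 fold changes of the 106 genes (x axis, shSOX4 over shCon, edgeR) by role group (y axis); each point is a gene, coloured by call, and the black line is the group median. Spindle kinesins and the outer kinetochore have medians of 0.75 and 0.72, while the passenger complex and the entry kinases sit at -0.11 and 0.06.

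Of all features 17.0% rose and 15.8% fell. Kinesins of the spindle, chromosomes and midzone rose in 8 of 13 cases (61.5%), and none of the 13 fell. KIFC1 (ENSG00000237649), a spindle motor that walks towards microtubule minus ends, is not matched by the symbol rule and went the other way. It had 102, 101 and 124 CPM in shSOX4 libraries, against 149, 143 and 172 CPM in shCon libraries, without overlap (-0.51, SE 0.161, adjusted p = 0.0270, edgeR), and lost its call without shCon 3, shSOX4 1 or shSOX4 2. CENPE (ENSG00000138778), the kinetochore motor that carries chromosomes to the spindle equator, had 4.08, 5.63 and 5.69 CPM in shSOX4 libraries, against 0.986, 1.48 and 1.05 CPM in shCon libraries. It was low in control cells and every shSOX4 value was above every shCon value (log2 fold change 2.13, SE 0.305, adjusted p = 0.000182, edgeR). KIF20B (ENSG00000138182), a motor of cytokinesis, had 5.28, 8.20 and 6.55 CPM, against 2.32, 1.53 and 2.42 CPM (1.67, SE 0.283, adjusted p = 0.000687, edgeR). KIF2A (ENSG00000068796), which takes subunits off microtubule ends at the spindle poles, had 7.98, 14.2 and 8.84 CPM in shSOX4 and 5.13, 4.00 and 3.94 CPM in shCon (1.24, SE 0.259, adjusted p = 0.00281, edgeR). Its shSOX4 2 value stood above the other libraries of the group. KIF15, a spindle motor that backs up KIF11, had 2.23, 3.06 and 3.45 CPM, against 1.27, 1.42 and 0.554 CPM (1.42, SE 0.381, adjusted p = 0.0120, edgeR). KIF15 and CENPE each had a shCon library under 1 CPM, so their fold changes rest on few control reads. These 4 genes kept their call in all 6 fits that left out 1 library.

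The other rises among spindle kinesins each lost their call when some single library was left out. KIF18A, which dampens chromosome oscillation, rose by 1.28 (adjusted p = 0.0127), KIF14, a midbody motor, by 1.02 (adjusted p = 0.0172), KIF11, the motor that pushes spindle poles apart, by 0.75 (adjusted p = 0.0237) and the chromokinesin KIF4A by 0.72 (adjusted p = 0.0353, all edgeR). KIF4A overlapped between the groups, with 29.7, 41.7 and 56.0 CPM in shSOX4 and 29.7, 28.8 and 19.0 CPM in shCon, and it has a near copy, KIF4B, from which its reads cannot be separated with certainty. These 4 calls were lost without shSOX4 2, where 4 of 13 rose, beside 10.4% of all features. KIF14 was also lost without shCon 2, KIF11 without shCon 1, and KIF4A without shCon 3 or shSOX4 3 (0.47 without shSOX4 3). Limma on log2(FPKM + 1) tested 8 of the 13, those with a mean of at least 1 FPKM, and called KIF2A alone. The abundant spindle kinesins were not called. KIF22, a chromokinesin, had 212, 172 and 193 CPM, against 178, 188 and 240 CPM (log2 fold change -0.07, 95% interval -0.43 to 0.28), and KIF2C, which corrects attachments at centromeres, had 101, 113 and 132 CPM, against 115, 113 and 88.4 CPM (0.13, -0.24 to 0.49). KIF20A (0.06), KIF23 (0.53) and KIF18B (-0.24) did not pass either, and KIF18B was the only one of the 13 with all shSOX4 values below all shCon values.

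**Figure D2:**
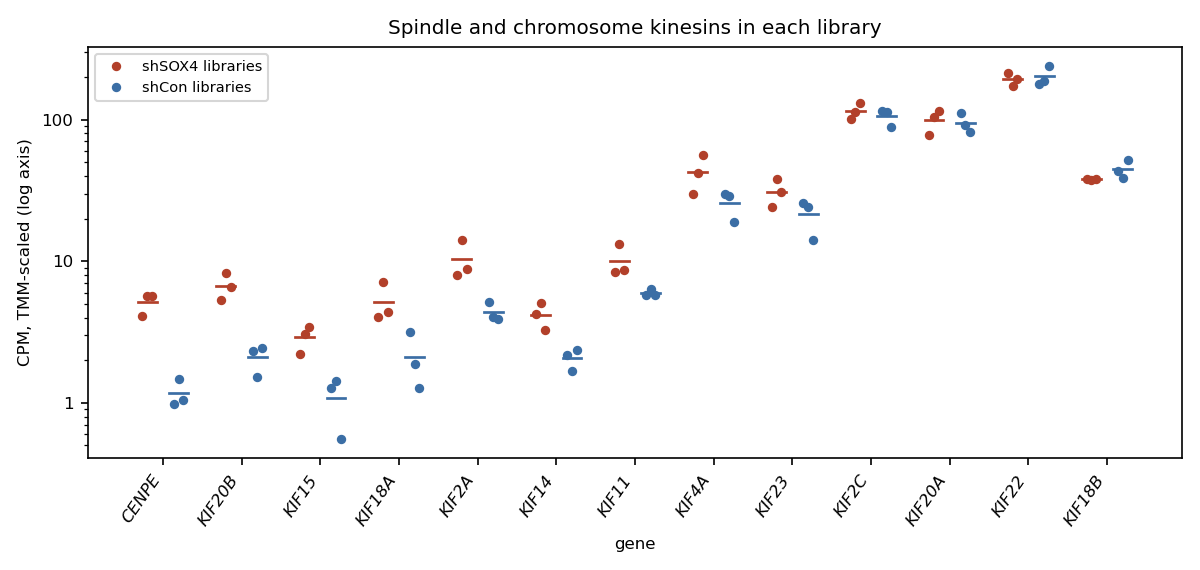
Level of each of the 13 spindle and chromosome kinesins in every library (y axis, CPM on a log scale; genes on the x axis in order of fold change); dots are libraries, short lines group means, shSOX4 in red on the left of each pair and shCon in blue. From CENPE to KIF11 every shSOX4 dot lies above every shCon dot, and the abundant KIF2C, KIF20A and KIF22 overlap.

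Kinesins of transport and other roles moved both ways, with 3 of 20 up (15%), 3 down (15%) and a median of 0.01. These shares were near the 17.0% and 15.8% of all features that rose and fell. KIF5B (ENSG00000170759), the heavy chain of conventional kinesin that drives cargo along microtubules, had 27.2, 25.8 and 21.4 CPM in shSOX4, against 13.1, 10.4 and 14.3 CPM in shCon (0.98, SE 0.199, adjusted p = 0.00242, edgeR). KIF17 (ENSG00000117245), a motor of dendrites and cilia, had 5.13, 3.56 and 3.81 CPM, against 8.70, 7.82 and 11.1 CPM (-1.14, SE 0.242, adjusted p = 0.00317, edgeR). KIF21B, a neuron-enriched motor, had 3.40, 3.40 and 1.85 CPM, against 6.66, 6.05 and 7.61 CPM (-1.23, SE 0.279, adjusted p = 0.00469, edgeR). None of these 3 overlapped between groups. KIF3C (ENSG00000084731), a kinesin-2 motor, had 42.5, 35.0 and 28.9 CPM, against 62.5, 58.3 and 62.4 CPM (-0.78, SE 0.185, adjusted p = 0.00592, edgeR). These 4 calls held without any single library. KIF26A (0.92, adjusted p = 0.0312) and KIF7, a regulator of Hedgehog signalling at the cilium (0.75, adjusted p = 0.0443), rose, but without shCon 1, shCon 2 or shSOX4 2 KIF5B alone was up, and KIF7, which overlapped between the groups, was also lost without shSOX4 1. KIF1C, the most abundant transport kinesin by CPM, had 421, 354 and 363 CPM, against 345, 357 and 459 CPM (-0.03, 95% interval -0.38 to 0.32), and KIF13A had a log2 fold change of 0.05 (-0.40 to 0.50).

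In the centromere chromatin and its constitutive network, the platform under the kinetochore, 4 of 17 rose (23.5%) and 2 fell (11.8%), with a median of 0.30. Over all features 17.0% rose and 15.8% fell. CENPS had 15.0, 17 and 16.6 CPM in shSOX4 and 10.4, 10.2 and 10.2 CPM in shCon (0.66, SE 0.188, adjusted p = 0.0165, edgeR), but it overlaps the readthrough locus CENPS-CORT, so how its reads were divided is uncertain. CENPH, an inner kinetochore subunit, went the other way with 26.6, 28.9 and 33.2 CPM, against 51.2, 46.9 and 39.3 CPM (-0.63, SE 0.183, adjusted p = 0.0175, edgeR). CENPN, which reads the CENPA nucleosome, had 59.6, 57.5 and 73.4 CPM, against 44.9, 44.9 and 31.6 CPM (0.65, SE 0.193, adjusted p = 0.0196, edgeR). CENPU, which helps bring Polo kinase to the kinetochore, had 4.55, 7.15 and 6.22 CPM, against 3.75, 3.22 and 2.65 CPM (0.89, SE 0.265, adjusted p = 0.0198, edgeR). None of these 4 genes overlapped between the groups. CENPW rose by 0.55 (adjusted p = 0.0392), and CENPA, the histone variant that marks the centromere, fell by 0.51 (adjusted p = 0.0436, both edgeR). CENPA had 23.7, 24.5 and 31.2 CPM, against 37.6, 39.7 and 35.8 CPM. CENPX was the member with the highest FPKM (mean 317 in shSOX4 and 252 in shCon) and was not called (0.30, 95% interval -0.07 to 0.66), nor was CENPB, which binds centromeric repeat DNA (0.26, -0.15 to 0.67). Both were called higher without shCon 3, CENPX at 0.45 (adjusted p = 0.0397) and CENPB at 0.49 (adjusted p = 0.0370, both edgeR), and without both libraries that stand apart (adjusted p = 0.0288 and 0.0340).

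Counts of calls in this group changed with single libraries. Without shSOX4 1, 7 rose, as CENPP, CENPI and CENPL joined, and 1 fell. Without shSOX4 2 only CENPN was up and none fell, and without shSOX4 3 only CENPS was up. No member fell without shCon 1 or without shCon 2, and without both libraries that stand apart 9 rose and 2 fell.

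The outer kinetochore, which holds microtubules, rose in 5 of 7 genes (71.4%) while 1 fell (14.3%), with a median of 0.72. The shares of all features were 17.0% and 15.8%. In the Ndc80 complex, NDC80 (ENSG00000080986) had 22.9, 28.6 and 30.5 CPM in shSOX4, against 18.3, 13.4 and 10.7 CPM in shCon (0.95, SE 0.223, adjusted p = 0.00574, edgeR). Its partner NUF2 (ENSG00000143228) had 15.9, 15.8 and 16.4 CPM, against 13.3, 12.1 and 9.53 CPM, and did not pass although the groups did not overlap (0.46, adjusted p = 0.0886, edgeR). SPC25 (ENSG00000152253) had 17.7, 21.6 and 26.9 CPM, against 14.8, 13.8 and 13.8 CPM (0.64, SE 0.201, adjusted p = 0.0245, edgeR). Its direct partner SPC24 (ENSG00000161888) was lower, with 21.7, 37.9 and 37.2 CPM, against 48.8, 51.5 and 70.7 CPM (-0.82, SE 0.231, adjusted p = 0.0152, edgeR), and kept that call without any single library. Without both libraries that stand apart its log2 fold change was -0.41 (adjusted p = 0.0263, edgeR), so the size of the fall rests on them. SPC24 fell in counts, but the FPKM values in the authors' deposited table were 28.1, 18.5 and 18.2 in shSOX4 and 23.5, 24.2 and 28.5 in shCon; the groups overlapped there, shSOX4 1 was among the highest, and limma on log2(FPKM + 1) did not call it (adjusted p = 0.332). Per length, mean FPKM in shSOX4 cells was 12.1 for NDC80, 7.70 for NUF2, 15.3 for SPC25 and 21.6 for SPC24, against 6.34, 5.63, 9.71 and 25.4 in shCon cells in the same order. These levels are descriptions, with no test between the subunits.

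CENPF (ENSG00000117724), a large protein of the kinetochore corona, had 16.8, 21.9 and 11.6 CPM, against 9.42, 7.17 and 7.75 CPM (1.05, SE 0.242, adjusted p = 0.00534, edgeR). ZWINT, which anchors a checkpoint complex at the kinetochore, had 146, 146 and 190 CPM, against 84.0, 114 and 94.5 CPM (0.72, SE 0.176, adjusted p = 0.00707, edgeR). KNTC1, the Rod subunit of that complex, had 8.57, 10.7 and 8.69 CPM, against 5.78, 5.05 and 4.40 CPM (0.88, SE 0.222, adjusted p = 0.00892, edgeR). All 3 were without overlap between groups. Without shSOX4 2, CENPF, ZWINT and NDC80 were the 3 that rose, and SPC25 was also lost without shCon 2 or shSOX4 3.

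**Figure D3:**
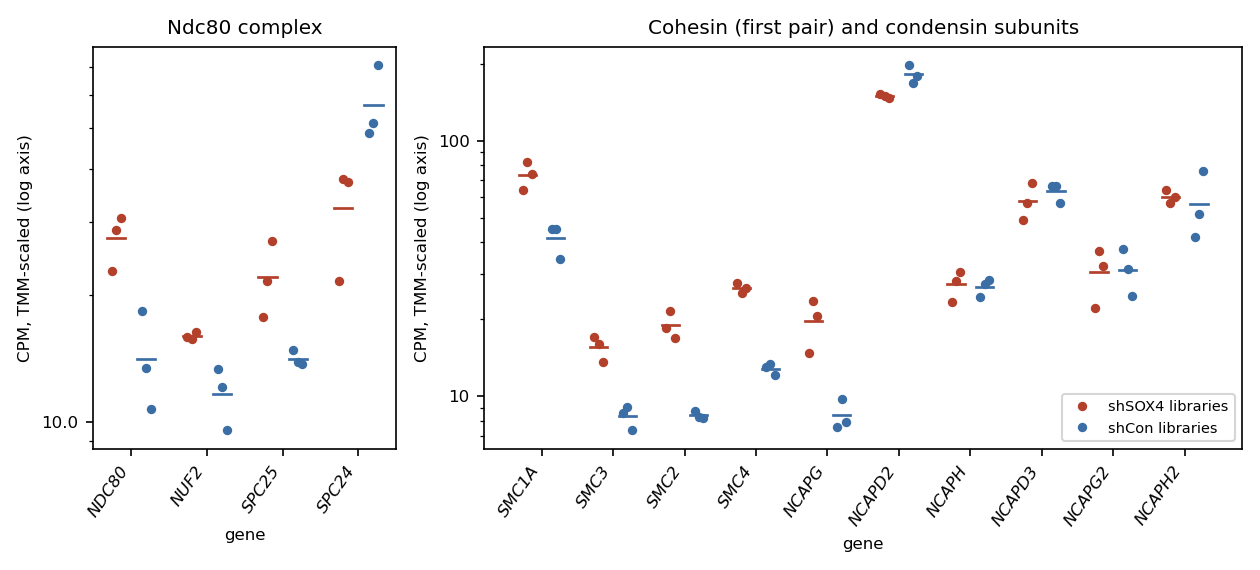
Level of the Ndc80 complex (left) and of cohesin and condensin subunits (right) in every library (y axis, CPM on a log scale); dots are libraries, short lines group means, shSOX4 in red on the left of each pair and shCon in blue. SPC24 lies below its shCon values while NDC80 and SPC25 lie above theirs, and SMC1A, SMC3, SMC2, SMC4 and NCAPG separate whereas NCAPD2, NCAPH, NCAPD3, NCAPG2 and NCAPH2 were not called.

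Among SMC proteins, the ring-forming ATPases of cohesin and condensin, each of the 4 measured rose. In the wider group of cohesin, condensin and their release 6 of 12 rose (50%) with none down (median 0.36). Of all features 17.0% rose and 15.8% fell. SMC2 (ENSG00000136824) had 18.5, 21.4 and 16.8 CPM in shSOX4, against 8.78, 8.30 and 8.19 CPM in shCon (1.17, SE 0.195, adjusted p = 0.000617, edgeR). SMC4 (ENSG00000113810), its partner in condensin, had 27.8, 25.4 and 26.4 CPM, against 13, 13.4 and 12.1 CPM (1.05, SE 0.180, adjusted p = 0.000748, edgeR). NCAPG (ENSG00000109805), a subunit of condensin I, had 14.8, 23.6 and 20.6 CPM, against 7.60, 9.78 and 7.96 CPM (1.22, SE 0.221, adjusted p = 0.00112, edgeR). These 3 were among the steadiest results, with no overlap and a call in every fit that left out 1 library. The other subunits of condensin I were not called: NCAPD2 had 152, 149 and 147 CPM, against 197, 169 and 179 CPM (-0.28, 95% interval -0.60 to 0.04), and NCAPH had a value of 0.04. Of the condensin II subunits NCAPD3 had -0.13 (-0.51 to 0.25), NCAPG2 -0.03 and NCAPH2 0.10. Per length, SMC2 and SMC4 averaged 3.46 and 4.72 FPKM in shSOX4 and 1.47 and 2.28 FPKM in shCon, under the 25.4 and 30.5 FPKM of NCAPD2.

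In cohesin, SMC1A had 64.2, 82.5 and 74.0 CPM, against 45.2, 45 and 34.5 CPM (0.82, SE 0.182, adjusted p = 0.00396, edgeR). SMC3 had 17.1, 16.0 and 13.6 CPM, against 8.59, 9.08 and 7.35 CPM (0.90, SE 0.201, adjusted p = 0.00432, edgeR). PTTG1, the securin that holds the protease separase in check, rose by 0.63 (adjusted p = 0.0116, edgeR), a call lost without shSOX4 3, with close copies elsewhere in the genome that make its reads uncertain. ESPL1, separase itself, had a value of -0.10 and was not called. The shugoshins, which guard centromeric cohesin, are in the table under the current symbols SGO1 and SGO2, which the rule does not match; looked up after the members' values were seen, SGO2 rose (5.46 ± 1.14 CPM in shSOX4 and 2.03 ± 0.695 CPM in shCon, SD, n = 3 each; 1.43, adjusted p = 0.00383, edgeR) and SGO1 did not pass (-0.27, adjusted p = 0.404, edgeR).

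Genes of the spindle and of cytokinesis rose in 3 of 6 cases (50%) with none down (median 0.64). The shares of all features were 17.0% up and 15.8% down. ASPM (ENSG00000066279), a spindle pole protein, had 12.4, 12.1 and 9.76 CPM in shSOX4, against 5.48, 6.83 and 5.01 CPM in shCon (0.98, SE 0.218, adjusted p = 0.00412, edgeR). ANLN (ENSG00000011426), the scaffold of the contractile ring, had 55.2, 58.4 and 50.2 CPM, against 36.9, 30.2 and 28.9 CPM (0.77, SE 0.178, adjusted p = 0.00522, edgeR). CEP55, which directs the final cut between daughter cells, had 37.5, 40.8 and 35.1 CPM, against 27.5, 21.1 and 21.5 CPM (0.69, SE 0.184, adjusted p = 0.0114, edgeR). The groups did not overlap for any of these 3, and CEP55 lost its call without shCon 2 or shSOX4 2. PRC1, the bundler of midzone microtubules, overlapped, with 118, 190 and 214 CPM, against 141, 128 and 79.1 CPM (0.59, adjusted p = 0.0703, edgeR). Its lowest shSOX4 value was in shSOX4 1 and its lowest shCon value in shCon 3, the libraries that stand apart, and without that pair its adjusted p was 0.00239. ECT2, which activates RhoA for the furrow, had 0.53 (adjusted p = 0.0590) and TPX2, which activates Aurora A on the spindle, 0.09 (95% interval -0.32 to 0.50).

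Among the kinases, phosphatases and cyclins grouped with mitotic entry, PLK2, PLK3 and PLK4 included, most did not pass. Of these 12 genes 1 rose (8.33%), none fell, and the median was 0.06. Over all features 17.0% rose and 15.8% fell. CDK1 had 111, 106 and 124 CPM in shSOX4, against 106, 102 and 77.7 CPM in shCon (0.25, 95% interval -0.11 to 0.62). CCNB1, cyclin B1, had 189, 271 and 318 CPM, against 208, 192 and 145 CPM (0.51, adjusted p = 0.0633, edgeR); it was called without shSOX4 1 (adjusted p = 0.00603) and without both libraries that stand apart (adjusted p = 0.00350). PLK1, the main Polo kinase, had 196, 174 and 184 CPM, against 174, 178 and 227 CPM (-0.06, 95% interval -0.41 to 0.28). AURKA, the Aurora kinase of spindle poles, had 107, 145 and 185 CPM, against 167, 159 and 116 CPM (-0.02, -0.46 to 0.42). The groups overlapped for all of these. In shSOX4 1 the 12 genes had a median log2 level that differed by -0.22 from shSOX4 2 and 3, and in shCon 3 by -0.43 from shCon 1 and 2. PLK4, which starts centriole duplication, was the gene that rose, with 5.02, 6.22 and 5.74 CPM, against 4.27, 3.22 and 2.04 CPM (0.83, SE 0.288, adjusted p = 0.0400, edgeR). Its call was lost without shCon 2, shCon 3, shSOX4 2 or shSOX4 3, where none of the 12 rose, and 2 (PLK4 and CCNB1) rose without shSOX4 1. Without shCon 2, CDC25B, a phosphatase that switches CDK1 on, fell.

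In the spindle checkpoint 1 of 7 rose (14.3%) and none fell (median 0.22), where 17.0% of all features rose and 15.8% fell. TTK (ENSG00000112742), the kinase that starts the checkpoint signal, had 26.8, 22.4 and 23.1 CPM in shSOX4, against 16.0, 17 and 13.9 CPM in shCon, without overlap (0.62, SE 0.186, adjusted p = 0.0204, edgeR). BUB3, a docking subunit, had 95.8, 149 and 180 CPM, against 117, 100 and 73.5 CPM (0.55, adjusted p = 0.0770, edgeR) and CDC20, the activator the checkpoint restrains, had 398, 333 and 398 CPM, against 388, 413 and 525 CPM (-0.23, 95% interval -0.58 to 0.12). BUB1 (-0.03), BUB1B (0.44), MAD2L1 (0.22) and MAD2L1BP (-0.13) were not called. Without shSOX4 2 none rose, and without shSOX4 1 BUB3 and BUB1B were the 2 that rose. BUB3 joined TTK without shCon 1, and 3 rose without both libraries that stand apart. Over these fits, in that order, 10.4%, 19.6%, 14.7% and 21.4% of all features rose. TTK was thus not called without shSOX4 1 or shSOX4 2. In the chromosomal passenger complex, which corrects faulty attachments, 1 of 4 genes fell (25%) and none rose, beside 15.8% and 17.0% of all features. The gene that fell was AURKB (ENSG00000178999), the kinase of the complex, with 106, 96.8 and 112 CPM, against 129, 138 and 174 CPM (-0.49, SE 0.165, adjusted p = 0.0358, edgeR). That call held in 1 of the 6 fits that left out a library, the one without shCon 1, and no gene of the complex fell in the other 5. BIRC5, survivin (-0.11, 95% interval -0.45 to 0.22), CDCA8, borealin (-0.10, -0.44 to 0.24), and INCENP, the scaffold (0.10), were not called.

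TOP2A (ENSG00000131747), the topoisomerase that untangles chromosomes, had 75.1, 90.8 and 57.2 CPM in shSOX4, against 52.9, 42.6 and 39.5 CPM in shCon, without overlap (0.73, SE 0.200, adjusted p = 0.0136, edgeR). MKI67, the proliferation marker Ki-67 that coats mitotic chromosomes, had 99.7, 124 and 81.0 CPM, against 84.2, 74.3 and 68.2 CPM (0.43, adjusted p = 0.0884, edgeR). Neither passed without shSOX4 2 and both passed without shSOX4 3. The 6 genes set apart by hand, placed in none of the other role groups and here called symbol-only, had no call. They were CENPJ, a centriole protein (0.78, adjusted p = 0.0828, edgeR, and 1 rise when shSOX4 3 was left out), CENPV (0.21), MAD2L2, a subunit of a repair polymerase (0.10), KIF1BP (-0.08), CENPBD1 (-0.34) and CENPS-CORT (-0.35).

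By FPKM, a level per gene length, 19 of the 32 members that rose lay under 5. A long gene can have a low FPKM with many reads, so these bins do not rank genes by read number. The 32 members that rose had a median of 2.79 FPKM over all 6 libraries, the 67 that were not called 9.89 FPKM and the 7 that fell 20.8 FPKM. Under 5 FPKM, 19 of 41 members rose (46.3%) and 2 fell, where 20.3% of all 6700 features at that level rose and 13.4% fell. From 5 to 20 FPKM, 9 of 31 rose and 1 fell, where 13.7% of features rose and 18.6% fell. At 20 FPKM or more, 4 of 34 rose and 4 fell (11.8% each), beside 13.7% and 17.6% of all features at that level. The median log2 fold change of members was 0.71, 0.38 and -0.02 across the bins from low to high, against 0.08, -0.08 and -0.07 for all features. The part of level or of gene length in the result was not tested.

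**Figure D4:**
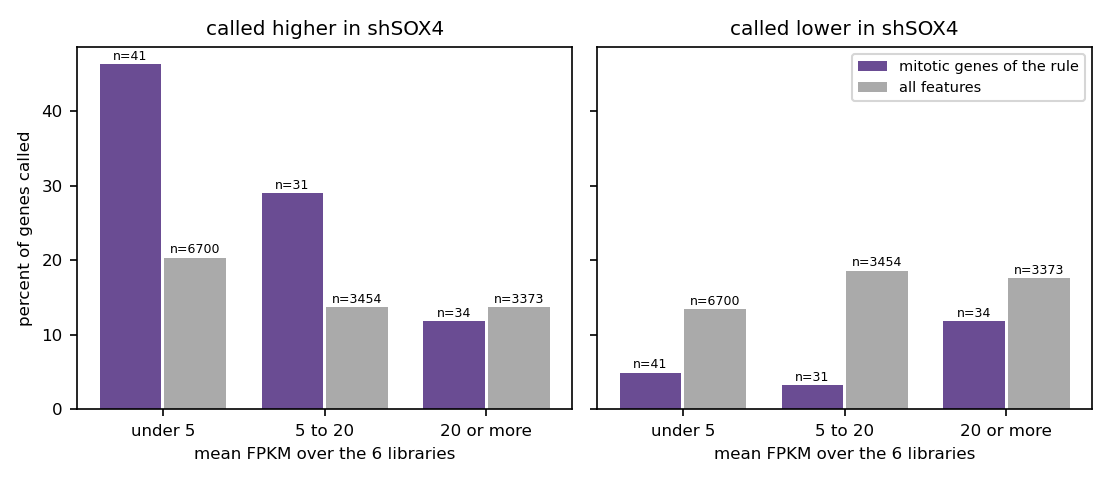
Percent of genes called (y axis) higher (left) and lower (right) in shSOX4 cells, in bins of mean FPKM over the 6 libraries (x axis); purple bars are the 106 mitotic genes, grey bars all features, with the number of genes in each bin above its bar. The share of mitotic genes that rose is 46.3% under 5 FPKM and 11.8% at 20 FPKM or more.

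Genes of the same machinery outside the symbol rule were taken from fixed lists. Beside the shares of each list stand those of all features, of which 17.0% rose and 15.8% fell. Of 11 measured cohesin subunits and loaders 6 rose (54.5%) and 1 fell (9.09%), a median of 0.54. STAG2, a cohesin subunit, averaged 21.4 ± 3.47 CPM in shSOX4 and 7.04 ± 1.09 CPM in shCon (SD, n = 3 each; 1.60, adjusted p = 9.28e-05, edgeR), and its relative STAG1 (1.18, adjusted p = 0.00215) and NIPBL, the cohesin loader (1.17, adjusted p = 0.00377, both edgeR), rose with it. In fits that lacked shCon 2 or shSOX4 2, 3 of the 11 rose, beside 13.3% and 10.4% of all features. The fall, of CDCA5 (sororin), held, among the fits that left out libraries, in those without shCon 1 or shSOX4 3 alone. Among 18 genes of the anaphase-promoting complex and its partners 3 rose (16.7%) and 1 fell (5.56%), with a median of 0.35. The share that rose was near that of all features. The subunit genes CDC27 (1.01, adjusted p = 0.00162), CDC26 (0.89, adjusted p = 0.00232) and ANAPC13 (0.97, adjusted p = 0.00299, all edgeR) rose, and FZR1, the activator of late mitosis, fell. There 7 rose without shSOX4 1 and 8 without the pair that stands apart, beside 19.6% and 21.4% of all features. None fell without shCon 3, shSOX4 2 or shSOX4 3, where 13.6%, 8.12% and 9.53% of all features fell.

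Of 39 other kinetochore, centromere-loading and spindle genes 9 rose (23.1%) and 4 fell (10.3%), with a median of 0.24. Over all features 17.0% rose and 15.8% fell. The rises were led by ZWILCH, a partner of KNTC1 (1.00, adjusted p = 0.00263), BORA, which helps Aurora A switch on PLK1 (1.04, adjusted p = 0.00446), and SKA2, which strengthens microtubule attachment (0.78, adjusted p = 0.00555, all edgeR). The 4 that fell were KIFC3 (-0.65, adjusted p = 0.0126) and KIFC1 (-0.51), kinesins that the rule misses, HAUS5, a subunit of the augmin complex that branches spindle microtubules (-0.65, adjusted p = 0.0201), and TACC3, which bridges microtubules of spindle fibres (-0.52, adjusted p = 0.0221, all edgeR). Without shSOX4 2, 4 rose and none fell, beside 10.4% and 8.12% of all features. In the fits without shCon 3 or without shSOX4 3, 2 fell (13.6% and 9.53% of all features). Of 12 genes of FOXM1, B-MYB and MuvB, transcription factors and partners of late cell cycle genes, none was called higher and 1 fell (8.33%, median -0.02). The gene that fell was E2F4 (-0.47, adjusted p = 0.0431, edgeR). E2F5 had -0.81 (adjusted p = 0.0525) and LIN9 0.52 (adjusted p = 0.0642, both edgeR). DESeq2 called 1 of the 12 higher. The number down was 0 without shCon 2 or any single shSOX4 library, 2 without shCon 3 and 3 without the pair that stands apart. Without shCon 3 and without the pair 13.6% and 19.5% of all features fell. Of 15 tubulins 1 rose and 1 fell (6.67% each, median 0.04). They were TUBA4A (0.84, adjusted p = 0.00292) and TUBB2B (-0.57, adjusted p = 0.0369, both edgeR), whose reads are hard to assign within a family of near copies. There 2 rose without shCon 3 and 4 without the pair that stands apart (15.3% and 21.4% of all features). Without that pair 2 fell (19.5% of all features), and none fell without shCon 2, shCon 3 or shSOX4 2. Of 23 dynein and dynactin genes, the motor that moves the opposite way to most kinesins, 7 rose (30.4%) and 2 fell (8.70%), with a median of 0.05. DCTN6 (1.28, adjusted p = 0.00144), DYNC1I2 (1.10, adjusted p = 0.00365) and DYNLT1 (0.60, adjusted p = 0.0127, all edgeR) came first. Without shSOX4 2, 3 of the 23 rose, without shSOX4 3, 4 rose, and none fell in either fit. Of all features 10.4% and 12.4% rose and 8.12% and 9.53% fell in these fits.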

How the data were processed

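RNA-seq of 6 libraries (3 shSOX4, 3 shCon) was analysed; 4 ATAC-seq libraries were not analysed here. The labels' protocols describe poly-A selection, paired-end sequencing and a pair of kits, without saying which library used which. For both assays together, hg19, STAR, HISAT2, deepTools 2.07, MACS2 2.1.1 and Bowtie2 are listed in the submitters' processing notes; counting program, annotation and strand setting were not given in the sources used here. Per the file headers, the authors deposited a raw count for each gene and library. Per the file headers, FPKM (scaled by gene length and depth) stand beside them. The authors' table also gives an adjusted p-value and a log2 fold change per gene. Every feature has at least 1 CPM in 3 or more libraries, so the table holds no gene low in every library; 101 of the 106 members reach 1 CPM in all 6 libraries, and none lacks such a library in either group. Columns lettered SH and NC were read as shSOX4 and shCon with the labels' numbers. Group is the only term in the model, and since no label ties a library to a culture of its own, p-values reflect the spread among these libraries, which may be technical.

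Tests used edgeR 4.0.16 in R 4.3.3 (TMM, filterByExpr, which removed 0 features, quasi-likelihood F test, two-sided, Benjamini-Hochberg over all 13527 features, called under 0.05), with limma 3.58.1 and DESeq2 1.42.0 as alternatives. The code was tested on simulated data. Fold changes are shSOX4 over shCon on the log2 scale, with the SE of the fit and 95% intervals. Members and lists were chosen with earlier results of these data known. Named genes are every called member, with values per library for up to 4 of each role group, the 2 most abundant uncalled members of each group, 7 fixed regulators, and 3 genes of each outside list; others (such as KIFC1, KIFC3, HAUS5 and TACC3) were chosen after their values were seen. Promoters came from RefSeq (GRCh38.p14), matched by symbol. Libraries of one group differed by a chi-square of 28.8 to 139 per degree of freedom, far beyond counting noise. Alternatives were other scalings, filters and tests, FPKM, the replicate number as a block, and fewer libraries.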

Additional observations from a re-analysis of the deposited data

How the results depend on the processing

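Of 39 called members, all kept their call under RLE scaling, without a filter, under a stricter 1 CPM filter, with DESeq2, with limma-voom and without newGene loci. Under total-count scaling 5 calls were lost (adjusted p 0.0510 to 0.0755), and CDC25B was called lower. Limma on log2(FPKM + 1) tested 89 members, of which 20 rose (32 with counts) and 5 fell. Of the 11287 features it tested, 13.8% rose and 15.9% fell. This fit called 1 spindle kinesin, no entry kinase and 2 outside cohesin genes higher, and neither SPC24 nor FZR1. The number of members that rose was 17 to 38 when 1 library was left out, the number that fell 4 to 6, and the number of all features called 2509 to 4966. No call changed direction under any of the 16 alternatives. With the replicate number as a block (replicate block), 26 members rose and 4 fell against 7 (13.5% and 11.5% of all features). In all, 3374 features were called against 4431. Deviations of same-numbered libraries correlated at -0.29, 0.16 and -0.29. These values showed no steady pairing by number, and with 3 libraries per group they cannot settle whether pairs exist. With the block 1 centromere network gene rose and 0 fell (4 and 2 without it), and no checkpoint gene rose. Of the dynein and dynactin genes 3 rose and 1 fell (7 and 2), and 1 other kinetochore gene fell (4). Of the 39 called members 9 lost their call, among them KIF4A, SPC25 and AURKB (edgeR adjusted p = 0.0557, 0.0756 and 0.114 with the block). FZR1, E2F4, CDCA5 and TUBB2B, outside the rule, lost their calls too. DESeq2 called 7 of the centromere network, 6 of the anaphase-promoting complex list and 5 of the spindle and cytokinesis genes higher, against 4, 3 and 3, and also CCNB1. For FOXM1, B-MYB and MuvB, DESeq2, the 1 CPM filter and the table without newGene loci each called 2 lower against 1, and limma-voom 0, as for FZR1. Where edgeR called no gene, unadjusted p under 0.05 gave 0 lower for spindle kinesins, checkpoint, cytokinesis, condensin and cohesin members, TOP2A and MKI67, and symbol-only genes, 1 lower for entry kinases (DESeq2 and limma-voom 0 for each of these), 0 higher for the passenger complex, 1 higher for symbol-only genes and 1 higher for FOXM1, B-MYB and MuvB. The median over all features moved by at most 0.02 on the log2 scale. Counts are limited for the lowest members: CENPE, KIF15, KIF27, CENPC and CENPS-CORT each had a shCon library under 1 CPM.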
